A study of Rattus norvegicus with 4 samples.

Results

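The genes of sterol and fatty acid synthesis and of its control by SREBP were examined in NR8383 cells, an alveolar macrophage line obtained by lavage of a normal rat's lung. All 4 cultures had been exposed to the Fe2O3 particle NRCWE018 at 2 µg/mL, for 4 h per the design text, and their labels place the RNA after 20 passages. They are labelled as biological replicates 1 to 4, and each was hybridised to its own position on 1 slide of single-colour arrays. The design also names untreated control cultures, which were not analysed here, so no value below is an effect of the particle. The set holds 30 genes chosen by name, of 16581 named genes on the array. A gene was taken from the probes whose RefSeq accession carries its symbol, and all 30 had at least 1 probe (42 probes in all). The cells are 1 line in culture, part adherent and part floating, and fewer cells of a kind cannot be told apart from less RNA per cell.

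Cholesterol and the isoprenoids are built from acetyl-CoA through the mevalonate pathway, which ends in farnesyl diphosphate. Squalene is made from that intermediate, cyclised to lanosterol and trimmed in a series of steps to cholesterol. When sterols run low in the endoplasmic reticulum, SCAP escorts the SREBP precursors to the Golgi, where proteases release transcription factors that switch on the pathway's own genes. When sterols are plentiful, INSIG proteins hold SCAP back. SREBP-1 is best known for fatty acid synthesis genes and SREBP-2 for sterol genes. Macrophages take up lipid with the particles and cells they engulf, store the surplus as sterol esters and export it under control of the LXR nuclear receptors.

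SREBPs bind sterol regulatory elements and work together with NF-Y, which binds CCAAT, and with Sp1, which binds GGGCGG. The 250 bases before the start of 4 genes of the set are shown here because they display these motifs or their absence. They come from RefSeq on GRCr8, and 24 of the 30 genes have such a window (25 windows, since Srebf1 has 2), whereas Pmvk, Fdft1, Sqle, Fasn, Acaca and Elovl6 have none in the table. Capitals mark CCAAT and GGGCGG on either strand (ATTGG and CCGCCC on the other) and a 10-base run that differs by 1 base from the classical sterol regulatory element. The run for Hmgcs1, which makes HMG-CoA, is at chr2:53382054-53382303 on the plus strand, and that for Srebf2, which encodes SREBP-2, at chr7:115543057-115543306 on the plus strand. The run for Fdps, the farnesyl diphosphate synthase, is at chr2:176804817-176805066 on the minus strand, and that for Scd, a stearoyl-CoA desaturase, at chr1:253231732-253231981 on the minus strand.
Hmgcs1: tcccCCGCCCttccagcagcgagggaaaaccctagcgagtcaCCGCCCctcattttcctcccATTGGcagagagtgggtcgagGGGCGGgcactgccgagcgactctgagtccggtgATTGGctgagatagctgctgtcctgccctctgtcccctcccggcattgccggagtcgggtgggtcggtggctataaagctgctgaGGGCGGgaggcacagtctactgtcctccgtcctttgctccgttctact
Srebf2: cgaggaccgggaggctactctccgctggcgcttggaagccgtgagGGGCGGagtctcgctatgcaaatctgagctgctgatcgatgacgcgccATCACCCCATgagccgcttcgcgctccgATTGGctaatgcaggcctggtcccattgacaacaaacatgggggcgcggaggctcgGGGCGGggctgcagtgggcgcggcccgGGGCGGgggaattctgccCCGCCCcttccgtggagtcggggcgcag
Fdps: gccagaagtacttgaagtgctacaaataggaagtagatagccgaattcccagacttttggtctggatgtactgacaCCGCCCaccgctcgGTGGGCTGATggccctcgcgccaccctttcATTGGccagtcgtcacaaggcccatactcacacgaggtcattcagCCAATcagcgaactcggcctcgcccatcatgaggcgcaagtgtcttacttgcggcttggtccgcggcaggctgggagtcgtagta
Scd: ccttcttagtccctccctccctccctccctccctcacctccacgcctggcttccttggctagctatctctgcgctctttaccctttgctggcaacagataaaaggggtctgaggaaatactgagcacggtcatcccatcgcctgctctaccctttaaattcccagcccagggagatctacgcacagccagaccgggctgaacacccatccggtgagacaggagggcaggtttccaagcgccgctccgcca

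In windows of 300 bases, which add 50 bases after the start, CCAAT was found on either strand in 20 of the 25 windows, against 37.5% of all 33469 windows. GGGCGG was likewise in 20 of 25, against 33.1% of all windows and 61.7% of the 7395 windows of genes above background on all 4 arrays. The share with CCAAT in the latter was 38.7%. Both motifs together were in 16 windows of the set, against 11.8% of all and 24.3% of those of genes above background. The 37 CCAAT matches before the starts lay between 14 and 215 bases upstream, with a median of 108.

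The exact 10-base element was in 0 of the 25 windows and in 0.125% of all windows, and the looser TCACNCCAC in 0 and in 1.12%. With 1 mismatch allowed, a search added after the values were seen, the 10-base element was found in Srebf2 (C10T, counted from the element's 5′ end) at 157 bases before the start and in Fdps (C5G, on the other strand) at 160 bases, against 1.88% of all windows and 1.35% of those of genes above background. The E-box CACGTG was in the windows of Insig1, Sc5d and Scap, 3 of 25, against 6.42% of all and 9.45% of those of genes above background, which is near the background. The window of Scd held none of these motifs. A match is a run of letters, not a shown binding site, and the absence of one says only that these letters are not in this window.

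Of the 30 genes, 27 passed the mark for well above background on each of the 4 arrays, 1 on a single array and 2 on none, where 50.5% of all named genes were above on all 4. All 8 genes of the mevalonate pathway, all 11 from squalene to cholesterol, all 5 of SREBP control and the sterol-esterifying Soat1 were above background on every array. Of the 5 genes of fatty acid synthesis, only Acly and Acaca were. Detection is the Agilent Feature Extraction software's own mark, and a probe below it does not show that the gene was not expressed.

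**Figure D1:**
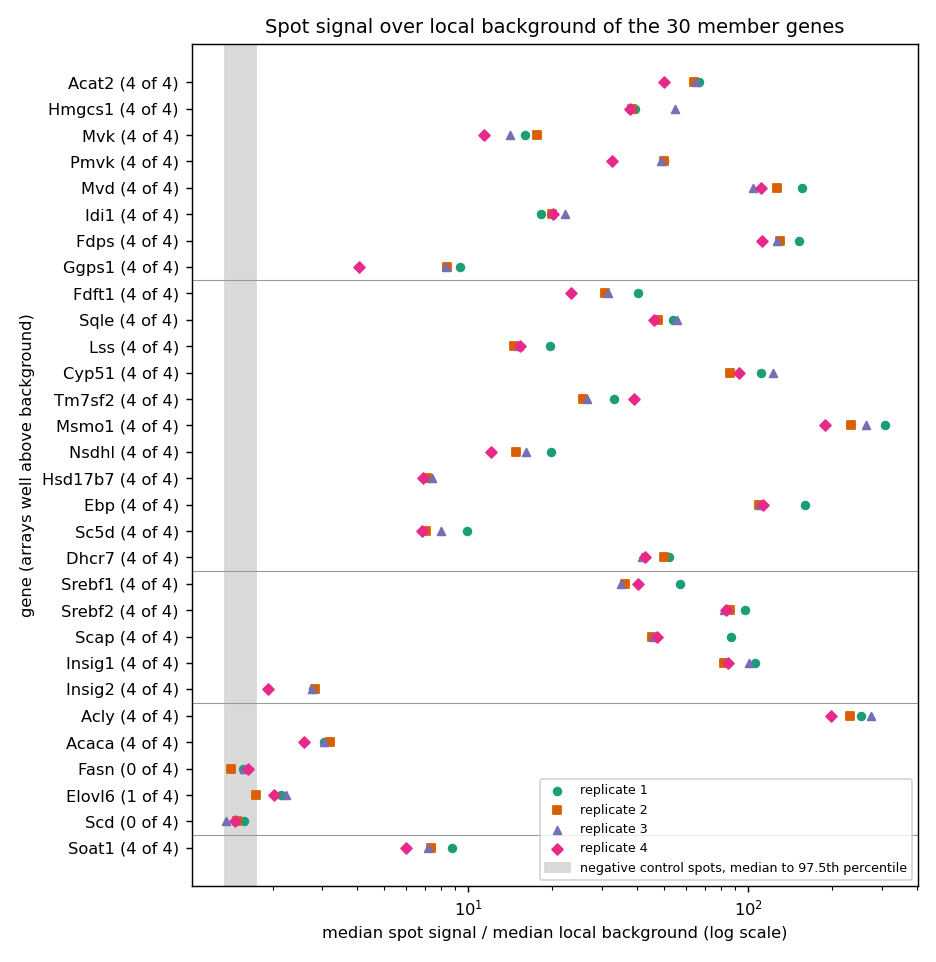
Each point is 1 array's median spot signal divided by the median local background around that spot, on a log scale, for the representative probe of each of the 30 genes; labels give the number of arrays on which the probe was well above background. Fasn (1.42 to 1.63) and Scd (1.36 to 1.58) lie inside the grey band of the negative control spots, and Elovl6 (1.75 to 2.24) from its upper edge upward, whereas the sterol genes lie to the right of it.

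Replicate 4 was the dimmest array. Its 75th percentile of processed signal was 756.5 units, against 984.3 to 1082 on the others. It also had the lowest share of probes well above background (37.8%, against 40.2% to 41.2%) and the highest share of outlier spots (1.62%, against 1.13% to 1.21%). The part of these differences in the results was not tested. The local background had medians of 41 to 46. No spot was saturated, and no probe had the same processed signal on any pair of arrays. Of 10 macrophage markers, 9 were above background on all arrays (Cd68, Csf1r, Lyz2, Spi1, Itgam, Mrc1, Pparg, Siglec1 and Fcgr2b), and Marco on none. Lung epithelium (6 markers), hepatocytes (4) and adipocytes (3 measured) had no marker above background on any array. Of the 9 remaining markers measured, Pecam1, which macrophages also express, Cdh5 and Dcn were above background on all 4.

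Levels are given as log2 of the processed signal minus the array's 75th percentile, in the order of replicates 1 to 4. Probes differ in how well they bind, so a level is compared between arrays and never between genes. Scaling on array medians instead moves the mean deviation of the 27 genes described below from -0.01, -0.04, -0.05 and 0.10 to 0.08, -0.14, 0.08 and -0.02, so a narrow order of arrays depends on the scaling. In the mevalonate pathway, Acat2, the cytosolic thiolase that condenses acetyl-CoA, was at 1.40, 1.58, 1.51 and 1.67. Hmgcs1 was at 0.54, 0.68, 0.94 and 0.92. These 2 entry enzymes were both lowest on replicate 1, and their highest and lowest arrays differed 1.20-fold and 1.32-fold. Of the 3 other Acat2 probes, 2 were also lowest on replicate 1, but 1 was highest there, at -2.47, -2.58, -2.86 and -2.72.

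The next steps are carried out by kinases and a decarboxylase. Mevalonate kinase, Mvk, was at -0.74, -0.48, -0.83 and -0.66, and phosphomevalonate kinase, Pmvk, at 1.23, 1.25, 1.15 and 1.26. The range of Pmvk, 0.11, was the narrowest of the 27 genes. Mvd, which forms isopentenyl diphosphate, was at 2.56, 2.52, 2.21 and 2.61, low on replicate 3 alone.

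Farnesyl diphosphate synthase, Fdps, which holds the branch point between sterols and isoprenoids, was at 2.60, 2.59, 2.49 and 2.66. The isomerase Idi1 was at -0.48, -0.06, -0.04 and 0.18, a 1.58-fold range with replicate 1 lowest. Its second probe, at -1.12, -0.77, -0.58 and -0.58, was lowest on the same array. Ggps1, which makes the geranylgeranyl diphosphate used for protein prenylation, was at -1.77, -1.72, -1.66 and -2.25, lowest on replicate 4. The second Ggps1 probe did not share that pattern, at -2.70, -2.42, -2.52 and -2.57.

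Squalene is formed by Fdft1, which was at 0.50, 0.28, 0.30 and 0.23, and is oxidised by Sqle, a flux-controlling step, at 1.09, 1.16, 1.28 and 1.44. The cyclase Lss, which closes the lanosterol rings, was at -0.53, -0.60, -0.78 and -0.46. On this scaling replicate 1 was the highest array for Fdft1 and the lowest for Sqle, so the consecutive enzymes did not share an order of arrays.

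Among the enzymes that turn lanosterol into cholesterol, the demethylase Cyp51 was at 2.26, 1.99, 2.48 and 2.50, a 1.43-fold range. The sterol reductase Tm7sf2 was at -0.04, -0.08, -0.10 and 0.86. Replicates 1 to 3 of Tm7sf2 lay within 0.06 of each other, and replicate 4 stood 1.94-fold above the lowest, the widest range of the 27 genes. Its adjusted p was 0.498 in limma's test of excess spread, described below, and the gene has 1 probe with 1 spot per array.

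Demethylation and desaturation of the ring follow. The methyl oxidase Msmo1 was at 3.62, 3.41, 3.44 and 3.53, and the decarboxylating dehydrogenase Nsdhl at -0.83, -1.01, -0.95 and -0.94. Sc5d, the desaturase that makes 7-dehydrocholesterol, was at -1.60, -1.79, -1.64 and -1.66. These 3 genes were each highest on replicate 1 and lowest on replicate 2, with ranges of 0.18 to 0.20.

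The keto-reductase Hsd17b7 was at -2.11, -1.99, -1.86 and -1.72, and the isomerase Ebp at 2.68, 2.30, 2.23 and 2.67. Dhcr7, which performs the final reduction to cholesterol in one branch, was at 1.17, 1.13, 0.78 and 1.23. Ebp split the arrays into pairs, with replicates 1 and 4 above replicates 2 and 3, and Dhcr7 was low on replicate 3 alone.

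**Figure D2:**
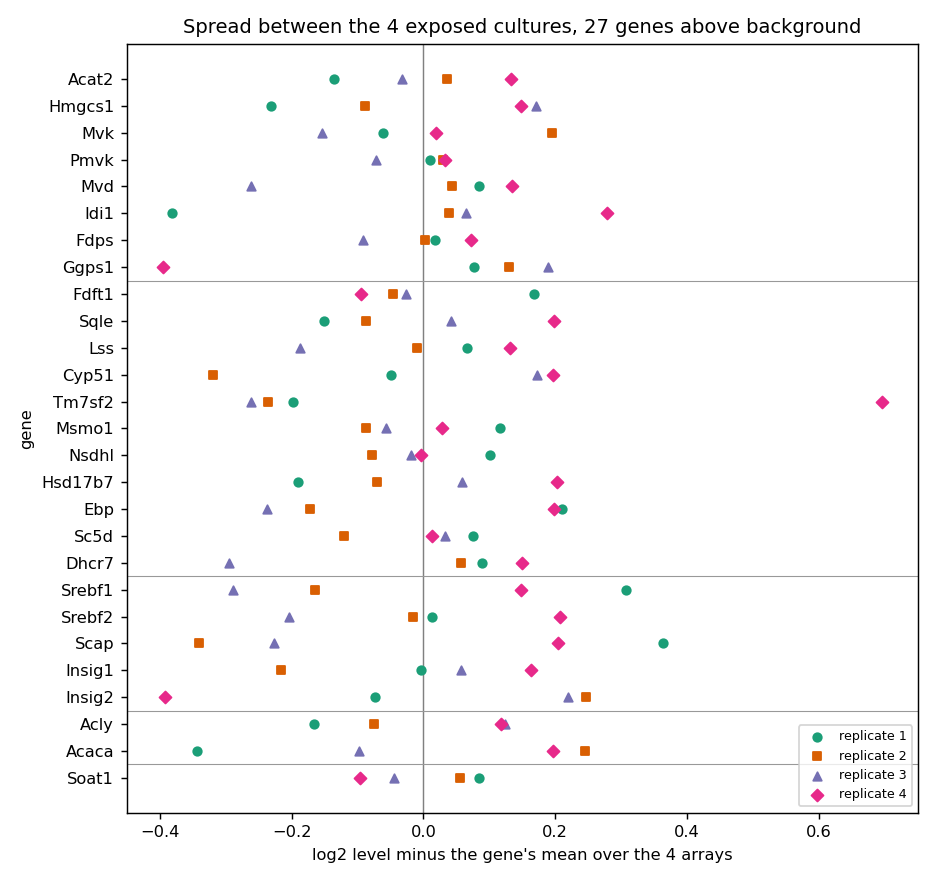
Each point is the log2 level of a gene on 1 array minus the gene's mean over the 4 arrays, for the 27 genes above background on all arrays; lines separate the roles. Nearly all points lie between -0.4 and 0.4, and the exception is Tm7sf2 on replicate 4, at 0.70.

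The SREBP genes themselves were above background together with their escort. Srebf1 was at 1.18, 0.71, 0.59 and 1.02, Srebf2 at 1.91, 1.88, 1.69 and 2.10, and Scap at 1.72, 1.01, 1.13 and 1.56. Replicates 1 and 4 were above replicates 2 and 3 for each of these 3 genes, narrowly for Srebf2. The ranges were 1.51-fold for Srebf1, 1.33-fold for Srebf2 and 1.63-fold for Scap. In the test of excess spread, limma's adjusted p was 0.979, 0.995 and 0.826, so none passed. The second Srebf1 probe, at -1.0, -1.02, -1.66 and -1.12, was likewise highest on replicate 1 and lowest on replicate 3, but placed replicate 2 above replicate 4.

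Insig1, which retains SCAP and is itself an SREBP target, was at 2.04, 1.83, 2.10 and 2.21, and its second probe at 0.49, 0.31, 0.47 and 0.51. On this scaling, which the probes share, both Insig1 probes put replicate 2 lowest and replicate 4 highest, the latter narrowly. Insig2, its partner isoform, was at -4.17, -3.85, -3.88 and -4.49, at 1.92 to 2.83 times its local background. The lowest Insig2 value was on replicate 4, and at this signal small changes in background move the log2 level.

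In fatty acid synthesis, Acly, which makes cytosolic acetyl-CoA from citrate, was at 3.27, 3.36, 3.56 and 3.55, at 198 to 274 times its local background. Acaca, the carboxylase that makes malonyl-CoA, was above background on every array but at only 2.59 to 3.20 times its local background, with levels of -4.33, -3.74, -4.08 and -3.79. A second Acaca probe was at -5.01, -4.93, -4.37 and -3.48. The 2 Acaca probes shared replicate 1 as the lowest array, and their deviations differed by up to 0.77, the largest gap between probes of a gene in the set.

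Fasn, the multienzyme that elongates malonyl-CoA to palmitate, had processed signals of 5.77, 5.09, 5.59 and 6.46 units with a software error of 100% of the signal. Scd, the desaturase that makes oleate, had signals of 5.46, 4.79, 5.19 and 5.11, likewise with an error as large as the signal. Elovl6, which extends palmitate to stearate, had signals of 21.9, 15.0, 31.3 and 21.2, well above background on replicate 3 alone. Its second probe was above background on no array, and Fasn and Scd have 1 probe each. Signals of this size carry no order between arrays.

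Soat1, which esterifies cholesterol for storage in macrophages, was at -1.83, -1.86, -1.96 and -2.01. All 4 arrays lay within 0.18 of each other.

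The spread between the 4 cultures was tested over all 8376 genes above background on every array. Each gene's variance between arrays was set against the variance of genes of like level, with limma and Benjamini-Hochberg adjustment over all of them. None of the 27 genes passed, and 16 of 8376 did (0.191%). With 4 arrays the test reaches mainly very large excesses of spread, so a count of 0 does not show that these genes varied no more than others. At an unadjusted p under 0.05 there were 2 of 27, Tm7sf2 (0.0111) and Scap (0.0424), against 5.75% of all genes. The SD between arrays had a median of 0.17 over the 27 genes, from 0.05 to 0.47, against 0.18 over all genes tested. It was above the SD fitted for the gene's level in 14 of 27, against 43.6% of all genes. A range of at least 0.5, or 1.41-fold, was seen in 8 of 27 (Idi1, Ggps1, Cyp51, Tm7sf2, Srebf1, Scap, Insig2 and Acaca), against 33.7% of all genes. These counts lie near the background.

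**Figure D3:**
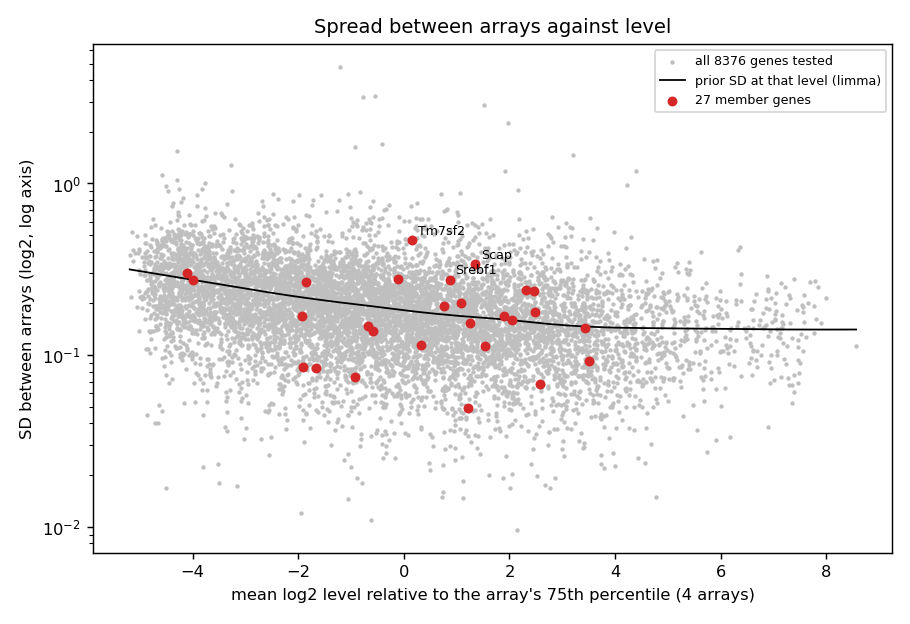
The SD between the 4 arrays (log2 units, log axis) is plotted against the mean level for all 8376 genes tested in grey and the 27 genes of the set in red; the line is the SD that limma fits for each level. The red points lie on both sides of the line, with 14 above it, and Tm7sf2 (SD 0.47) and Scap (SD 0.34) are farthest above.

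Spots printed repeatedly on each array give the noise among spots, which does not include labelling and hybridisation, for 7 of the genes: Acat2, Acly, Cyp51, Ebp, Fdps, Msmo1 and Sqle, each with 10 spots per array. The SD among spots of 1 array was 0.03 to 0.20, with a median of 0.06 over the 7 probes. The SD between the 4 array means was 0.07 for Fdps (single spots 0.06) and 0.24 for Cyp51 (single spots 0.06). Ebp had the noisiest spots (0.13, with 0.24 between array means). An SD of array means and an SD of single spots are different quantities, and no test was made between them. Differences between cultures and between positions on the slide both enter the spread between arrays and cannot be told apart.

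In 10 genes the array holds more than 1 probe, and in 9 of them every probe was above background on all 4 arrays, Elovl6 being the other. Among these 9, the probes of a gene named the same highest array in 5 and the same lowest array in 5. They shared both in 3, Insig1, Lss and Srebf1. Probes of a gene share any shift of a whole array, and the agreement over all genes was not counted, so these counts have no background beside them. Lss was at -0.64, -0.81, -1.0 and -0.44 by its second probe, the same order as its first. Cyp51's second probe, at 0.92, 1.05, 1.1 and 1.51, kept replicate 4 highest but put replicate 1, not 2, lowest.

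Relative to all genes, the mean of the 27 genes differed between arrays by a few hundredths of a log2 unit. The mean deviations given above carry any shift of a whole array. Set against the mean deviation of all 8376 genes, which does not change with a constant scaling, the set was at 0.02, -0.04, -0.02 and 0.04. Without Tm7sf2 it was at 0.03, -0.03, -0.02 and 0.02. The highest value of a gene was on replicate 4 for 13 of 27, against 36.3% of all genes. It was on replicate 1 for 8 (19.9% of all genes), among them Srebf1, Scap, Msmo1 and Ebp, on replicate 2 for 3 (23.6%) and on replicate 3 for 3 (20.1%). The lowest value was on replicate 3 for 10 of 27 (34.4% of all genes), on replicate 1 for 7 (29.9%), on replicate 2 for 6 (20.4%) and on replicate 4 for 4 (15.4%). The count highest on replicate 4 ran from 1 to 17 over other scalings, another background correction, averaging over probes and keeping outlier spots. The count lowest on replicate 2 ran from 4 to 17, so these counts mark no array. Shares of all genes under these alternatives were not counted.

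By role, relative to all genes, the mevalonate genes were at -0.05, 0.05, 0.00 and -0.00, and the genes from squalene to cholesterol at 0.05, -0.11, -0.04 and 0.10. SREBP control was at 0.15, -0.10, -0.06 and 0.01, and with normexp background correction at 0.12, -0.14, -0.11 and 0.13. Acly and Acaca were at -0.23, 0.08, 0.04 and 0.10. Averaged over probes they were at -0.28, -0.10, 0.09 and 0.30, so their value on replicate 2 changed sign. No test was made of these means.

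**Figure D4:**
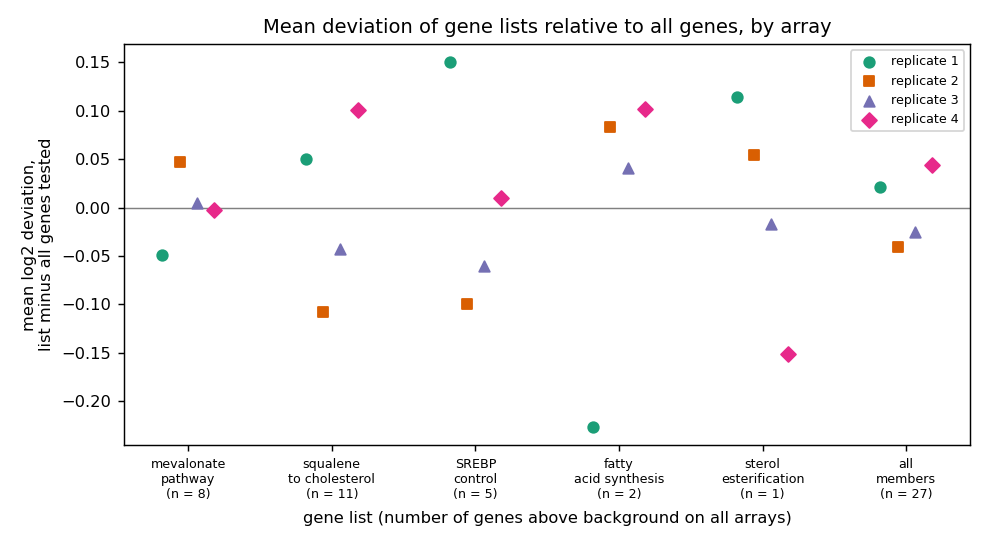
Each point is the mean log2 deviation of a gene list on 1 array minus that of all genes tested, by role and for all 27 genes. All 27 together lie between -0.04 and 0.04, whereas SREBP control runs from -0.10 to 0.15 and the 2 fatty acid genes from -0.23 to 0.10.

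Of 78 other genes of sterol and lipid metabolism, 75 were on the array and 60 passed the background mark everywhere, while 2 did so on part of the arrays and 13 on no array. Among other sterol and isoprenoid enzymes 10 of 11 were, including the prenyltransferase subunits Fnta and Fntb and the electron donor Por, while Pggt1b passed on 3 arrays. Lbr, a sterol reductase, had no probe with that symbol.

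Of 11 genes of SREBP cleavage and sterol-regulated degradation, 8 were above background on all arrays. The site-1 protease Mbtps1, the first to cut SREBP, was at 1.34, 1.62, 1.40 and 0.59, lowest on replicate 4, with a limma adjusted p of 0.441 for excess spread. Mbtps1 has 2 probes, and for the genes outside the set only the representative probe is given. The site-2 protease Mbtps2, which makes the second cut, was above background on no array, at 1.56 to 1.74 times local background. Rnf145 and Prkaa2 were also above background on none.

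In sterol uptake and transport 9 of 12 were above background on all arrays. The sterol carrier Stard4 was at 0.17, 0.37, 0.69 and 0.57, and Vldlr was above background on no array.

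Of 11 genes of LXR, efflux and oxysterols, 10 were above background on all arrays, all but Cyp7b1. The receptors Nr1h2 (LXR beta) and Nr1h3 (LXR alpha) were at 2.25, 2.06, 1.60 and 1.33 and at 3.53, 3.66, 3.50 and 3.60. Nr1h2 spanned 0.92 and Nr1h3 0.16, with limma adjusted p of 0.50 and 0.997. The exporters Abca1 and Abcg1 were at -2.86, -2.83, -3.22 and -3.06 and at 5.83, 5.58, 5.63 and 5.87.

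Fatty acid elongation, desaturation and lipid storage had 23 of 30 genes above background on all arrays, and the 7 others were above on none: Acacb, Elovl7, Fads1, Fads2, Scd2, Thrsp and Lpin1. With Scd, all 4 desaturases measured, Scd, Scd2, Fads1 and Fads2, were thus below the mark, each at no more than 1.77 times local background. Of 4 elongases, Elovl1 and Elovl5 were above on all arrays (Elovl5 at -4.68, -4.61, -4.41 and -4.08), Elovl6 on 1 and Elovl7 on none. The acetyl-CoA synthetase Acss2 was at -0.28, -0.56, -0.67 and -0.46. The triglyceride synthesis genes Dgat1 and Dgat2 and the lipid droplet coat gene Plin2 were above background on all arrays. Dgat1 was at 2.28, 2.27, 2.11 and 1.65, Dgat2 at 0.71, 0.82, 0.55 and 0.70, and Plin2 at 2.54, 2.60, 2.52 and 2.59. The 60 genes had a median SD of 0.18, and none passed limma's test of excess spread. In that test 3 of the 60 (Mbtps1, Nr1h2 and Mcat) had an unadjusted p under 0.05, against 5.75% of all genes. That count lies near the background.

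**Figure D5:**
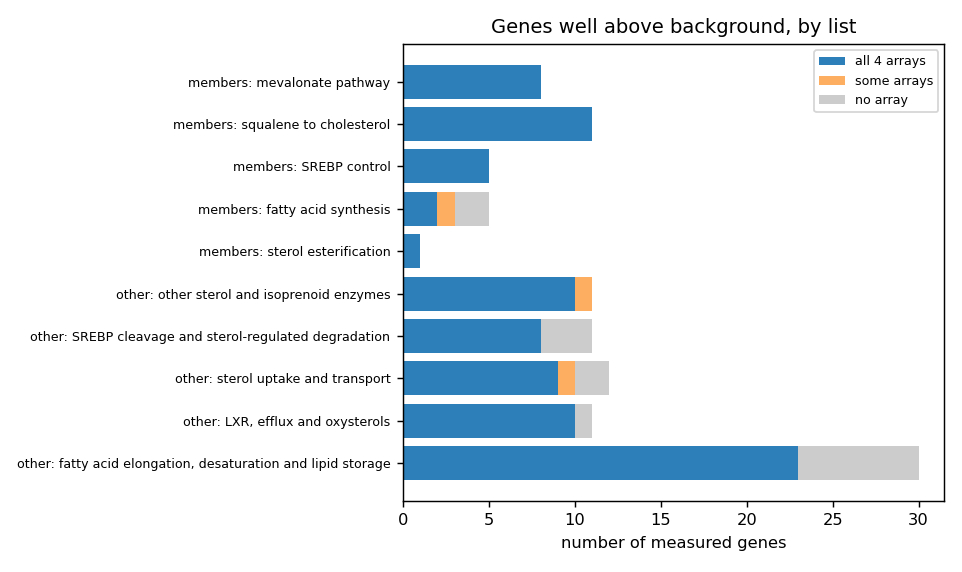
Bars count the measured genes of each list by the number of arrays on which they passed the background mark (all 4, some or none). The 3 lists of sterol synthesis and SREBP control genes of the set are filled to 24 of 24, and fatty acid synthesis to 2 of 5.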

How the data were processed

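Total RNA of the 4 exposed cultures was labelled with Cy3, and each hybridised to 1 array, per the labels' protocols. The intensity values were deposited by the authors as Agilent Feature Extraction output (11.0.1.1, per the submitters' processing notes). Per the file headers, the processed signal was background-subtracted and spatially detrended within each array, with no scaling between arrays; the median spot and local background intensity, the signal's error and flags of 0 or 1 were also used. How the authors scaled between arrays is not given in the sources used.

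Control spots and spots flagged as outliers were left out (an outlier stayed where all spots of its probe were flagged). From log2 processed signal the array's own 75th percentile was subtracted, repeat spots were averaged, and a gene was its probe above background on most arrays, then of highest signal. Of 45598 probes, 21109 were named by unversioned RefSeq accession through the GRCr8 gene table (used for names). A probe was above background where more than 0.5 of its spots were marked well above background. The test of excess spread used limma 3.58.1 (R 4.3.3): an upper-tail F test against a robust prior trended on level, threshold 0.05, checked on simulated data. Named genes followed a rule: all 30 genes with every value where above background, and fixed pathway genes, by detection class or with values. Some genes of these lists are not reported here. The genes, lists and tests were chosen with earlier results of these data known. p-values set a gene's spread between these 4 samples against that fitted for genes of its level. Negative control spots served only for the ratio of signal to local background, as their median and 97.5th percentile. normexp used the median spot signal, which is not spatially detrended, with an offset of 50, because the files have no mean signal column. The number of arrays limits precision. Alternatives tried were other scalings, background correction, flags, probe rules, priors, outlier handling and leaving out each array.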

Additional observations from a re-analysis of the deposited data

Results flagged for a closer look

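Of 46 sets of 4 values examined, 1 had an array far from the rest, and about 1 in 20 would by chance. Tm7sf2, at -0.04, -0.08, -0.10 and 0.86, had a gap between replicate 4 and the nearest array of 0.934 of its whole range, above Dixon's critical value for 4 samples. Scaled to replicate 4's 75th percentile, its spot there exceeded the median of the other arrays by 653 units. Of 38 neighbouring spots within 6 rows and 2 columns, the 19 that were dim on replicates 1 to 3 exceeded theirs by a median of 1.45 units and at most 8.56. Dim spots could show an added signal but not a proportional gain of the region, and no values are given here for the brighter neighbours. Whether a fault of the Tm7sf2 spot itself or of its region raised its value was not tested.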

How the results depend on the processing

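The count of the set above background on all arrays stayed at 27 or 28 under each alternative tried (27 without any 1 array), and that of the pathway genes between 59 and 65. For the test of excess spread, 0 of the 27 passed under each alternative but the one with no low-signal filter, where 1 did (Tm7sf2, limma adjusted p 0.0315, and from 0.0315 to 0.982 over these alternatives); in that fit 2 pathway genes passed and 370 of all genes, over 16581 genes whose prior degrees of freedom were unbounded. With normexp background correction 3 pathway genes (Mbtps1, Nr1h2 and Mcat) and 157 of all genes passed. That alternative starts from the median spot signal, so it also leaves out the spatial detrending. Over all genes the count was 118 with array medians, 5 when the prior variance did not follow level, 10 without its robust fit, 25 with outlier spots kept, and 7 to 22 without 1 array (7 without replicate 2); the causes were not tested. Without 1 array, 0 of the set and 0 pathway genes passed. The mean deviations moved with array medians to 0.0767, -0.137, 0.0802 and -0.0201; without 1 array they ranged from -0.03 to 0.03, -0.06 to -0.01, -0.07 to -0.02 and 0.08 to 0.10 on replicates 1 to 4. No paired analysis was possible because there is 1 group. Signal near background limits Insig2 and Acaca, and also Elovl5, at 2.40 to 2.78 times its local background.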
